A study of Triticum urartu with 18 samples.

Results

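The alpha gliadins are one class of wheat storage prolamin, and 10 of their genes (Gli-α-2, Gli-α-3, Gli-α-4, Gli-α-5, Gli-α-7, Gli-α-8, Gli-α-10, Gli-α-11, Gli-α-12 and Gli-α-13) are described here out of 27121 genes in the table. They are listed rows of the authors' deposited table that are annotated as gliadin genes and whose identifiers carry the alpha gliadin prefix. The table holds 12 rows with that prefix, and the remaining rows, Gli-α-6 and Gli-α-9, are set beside the 10 below. RNA-Seq was carried out on grains of Triticum urartu, the wild diploid wheat from which the A genome of bread wheat derives, from the untreated wild-type accession PI 428198. Endosperm was taken at 5, 10, 15, 20 and 25 days post anthesis (DPA) with embryo, aleurone, seed coat and pericarp removed, and flag leaf was taken at 10 DPA. Each of the 6 groups had 3 libraries, which the protocol calls independent biological replicates.

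Gliadins are monomeric prolamins rich in proline and glutamine, laid down in the protein bodies of the starchy endosperm as a nitrogen reserve for the seedling. Alpha gliadins are encoded by a multigene family at the Gli-2 loci of wheat, many of whose copies are close to one another in sequence, and several carry the peptides that trigger coeliac disease. Prolamin genes are switched on during grain filling by endosperm transcription factors that bind the prolamin box and the GCN4-like motif of their promoters, among them the Dof factor WPBF and the bZIP factor SPA. The table does not say how reads that match several copies were shared out, so the split of reads among these genes is uncertain.

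Values are FPKM, which corrects a gene's fragments for its transcript length and for the number of mapped fragments in the library. Levels of different genes within a library are therefore given per length, but the libraries differed in total FPKM, so changes between stages depend on the scaling, as stated with the results. Total FPKM was 1300333 to 1440035 at 5 DPA, 1772166 to 1826023 at 10 DPA, 1931439 to 2058668 at 15 DPA and 3556315 to 3596339 at 20 DPA. In the 25 DPA libraries it was 3605504, 1845514 and 1874718. Read depth is not given. From the steps between low FPKM values, depth relative to 10 DPA library 1 was estimated. The estimates ran from 0.320 for flag leaf library 1 to 1.07 for 5 DPA library 2. Library numbers are those of the table's columns, since the columns name a group and not a sample within it. The 25 DPA libraries were unlike one another, so their values are given one by one. As a check of the tissue labels, other storage protein genes of the starchy endosperm were high in endosperm and near 0 in leaf: the 3 gamma gliadins summed to 90790 FPKM ± 2883 at 10 DPA and 5.03 ± 2.16 in flag leaf, and the 3 low molecular weight glutenins to 69235 ± 3000 and 3.33 ± 1.77 (SD, n = 3).

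Between 5 and 10 DPA the alpha gliadins went from traces to some of the most abundant transcripts of the endosperm. At 5 DPA their sum was 13.1, 42.8 and 24.5 FPKM in the 3 libraries, or 0.00199% ± 0.00115 of the total FPKM (SD, n = 3). At 10 DPA it was 120652, 119874 and 125393 FPKM, or 6.77% ± 0.262 of the total. Every member had non-overlapping libraries at these stages, as had 5.36% of all genes tested in the higher direction. Gli-α-8, the most abundant member, had 5.38, 12.9 and 4.69 FPKM at 5 DPA and 28183, 28199 and 30727 at 10 DPA. Gli-α-4, the least abundant, was listed at 0 in 2 of the 3 libraries at 5 DPA with 0.43 FPKM in the other, and had 3854, 3921 and 3461 FPKM at 10 DPA.

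All 10 members rose in limma's test on log2(FPKM + 1), fitted over the 15 endosperm libraries with Benjamini-Hochberg adjustment over 19418 genes, where a call needs an adjusted p under 0.05 and a log2 change of at least 1. Of all genes tested, 3.16% were called higher in this comparison. The members' log2 changes were 11.41 (Gli-α-10) to 12.22 (Gli-α-2), with SEs of 0.74 to 0.83 and adjusted p from 1.78e-08 to 7.21e-08, and their median was 11.88 against -1.23 over all genes tested. These changes are on the log2(FPKM + 1) scale, which understates the rise of a gene near 0 at 5 DPA. A list of 84 genes was chosen on these libraries as abundant in flag leaf and far lower in 15 DPA endosperm. Low values in filling endosperm were thus partly built in. Between 5 and 10 DPA the list's median fell from 510, 468 and 452 FPKM to 125, 101 and 95.7. Of its genes, 0 or 1 were at 0 in each 5 DPA library and 2 to 7 in each 10 DPA library. The list's part in the result was not tested. In bulk endosperm, more cells that make gliadins and more gliadin transcript per cell cannot be told apart.

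**Figure D1:**
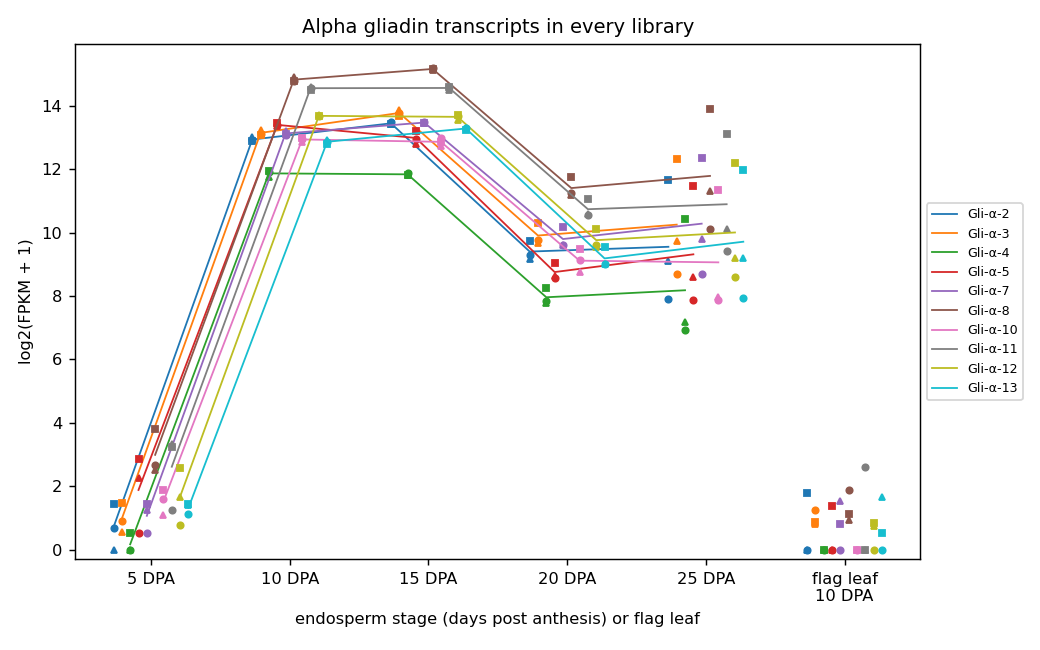
Each point is the log2(FPKM + 1) of 1 alpha gliadin gene in 1 library (circle, library 1; square, library 2; triangle, library 3), by endosperm stage in days post anthesis and for flag leaf, and lines join the means of the log2 values of the 3 libraries across endosperm stages. All 10 genes lie below 4 at 5 DPA and in flag leaf and above 11 at 10 and 15 DPA, and the 25 DPA libraries spread widely within each gene.

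The members differed in level by a wide margin, with Gli-α-8 first, Gli-α-11 second and Gli-α-4 last by mean at each stage from 10 to 25 DPA. At 10 DPA the mean of Gli-α-8 was 29036 FPKM ± 1464, that of Gli-α-11 was 24068 ± 677, and that of Gli-α-12 was 13145 ± 175 (SD, n = 3). Gli-α-5 followed at 10798 FPKM ± 325. These first 4 places were the same in each library, with no overlap between neighbours. Gli-α-3 at 9071 ± 561 and Gli-α-7 at 8953 ± 398 FPKM overlapped. Gli-α-10, Gli-α-2 and Gli-α-13, at 7854 ± 335, 7837 ± 393 and 7467 ± 332 FPKM, overlapped with their neighbours among these 3, and Gli-α-4 came last at 3745 ± 249. Gli-α-8 was 7.31, 7.19 and 8.88 times as abundant as Gli-α-4 in the 3 libraries. Gli-α-8 and Gli-α-11 together held 43.5%, 43.0% and 44.1% of the FPKM of the 10 members. Ranked among all 27121 genes at 10 DPA, Gli-α-8 was 11 in every library, Gli-α-11 was 15 or 16, and Gli-α-4 was 48 to 50.

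At 15 DPA the members went different ways, and the order in the middle of the family changed. The sum of the 10 genes was 142308, 140865 and 135435 FPKM, above every 10 DPA library. Libraries of 10 and 15 DPA did not overlap for 6 members, of which 5 were higher at 15 DPA and 1 was lower. Over all genes tested, 5.53% were non-overlapping and higher, and 48.9% non-overlapping and lower. The whole-series limma fit called 0 of the 10 in this comparison, against 17.9% of all genes, with 0 members at an unadjusted p under 0.05. Their SEs there were 0.74 to 0.83, in a fit where each gene has 1 spread for all endosperm stages, the unlike 25 DPA libraries among them. The part of single stages in these SEs was not tested. Directions in FPKM depend on the scaling: after median-ratio scaling, which moved the median change of all genes from -0.65 to -0.18, all 10 members had positive log2 changes of 0.35 (Gli-α-5) to 1.39 (Gli-α-3), again with 0 called. Under that scaling 1929 of 19418 genes were called in either direction.

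Among the genes that were higher at 15 DPA, Gli-α-3 had 8833, 8667 and 9712 FPKM at 10 DPA and 14073, 13208 and 14782 at 15 DPA, a ratio of means of 1.55. Gli-α-2 had 7721, 7515 and 8275 FPKM and then 11600, 10890 and 11019, a ratio of 1.43. Each of these 15 DPA libraries lay above each 10 DPA library of the same gene. Gli-α-13 had 7446, 7147 and 7810 FPKM at 10 DPA and 10118, 9711 and 10090 at 15 DPA. Gli-α-7 went from 8686, 8762 and 9410 to 11591, 11213 and 11268 FPKM, and Gli-α-8 from 28183, 28199 and 30727 to 37358, 36850 and 35722. The ratios of means were 1.34, 1.27 and 1.26 for these last 3 genes, smaller than those of Gli-α-3 and Gli-α-2, with no overlap between stages.

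Gli-α-5 was the one member whose FPKM was lower at 15 DPA in every library, though not after median-ratio scaling, at 10698, 11161 and 10534 FPKM at 10 DPA and 7966, 9508 and 7043 at 15 DPA. Its ratio of means was 0.757, and 15 DPA library 2 stood nearest to the earlier stage. The remaining 4 members overlapped between the stages. Gli-α-11 had 24271, 23313 and 24620 FPKM and then 24738, 24900 and 22956, a ratio of 1.01. Gli-α-12 had 13063, 13025 and 13345 FPKM and then 13088, 13438 and 12097, a ratio of 0.979. For these abundant genes the spread within a stage was larger than the difference between the stages. Gli-α-10 had 7897, 8165 and 7499 FPKM at 10 DPA and 8023, 7504 and 6867 at 15 DPA, and Gli-α-4 had 3854, 3921 and 3461 and then 3751, 3641 and 3592.

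**Figure D2:**
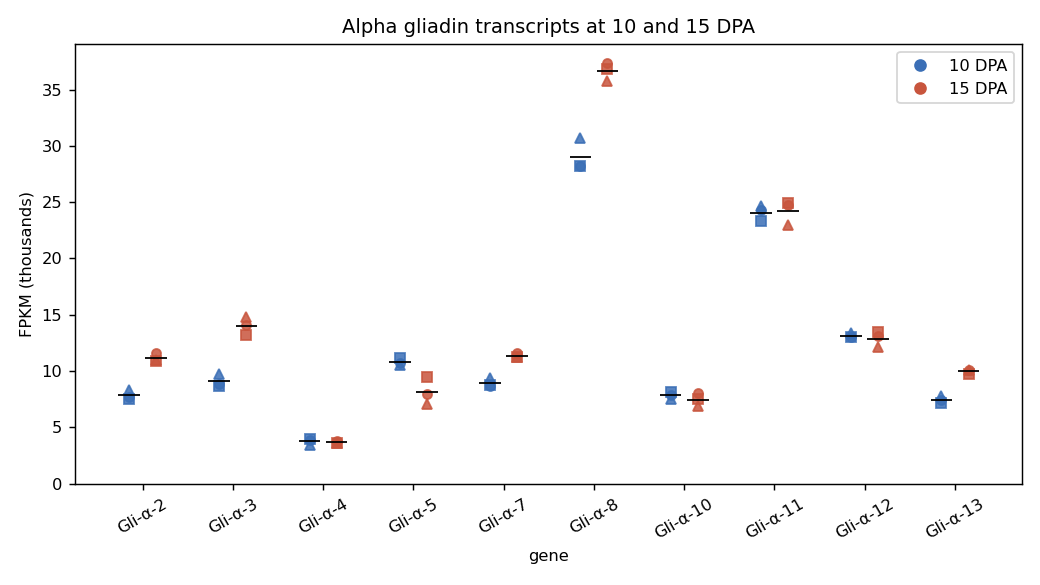
FPKM (linear axis from 0) of each alpha gliadin gene in the 3 libraries of 10 DPA and the 3 of 15 DPA (circle, library 1; square, library 2; triangle, library 3), with a bar at the mean. Gli-α-2, Gli-α-3, Gli-α-7, Gli-α-8 and Gli-α-13 are higher at 15 DPA without overlap, Gli-α-5 is lower without overlap (its log2 change turns to 0.35 after median-ratio scaling), and the other 4 overlap.

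With the 10 and 15 DPA libraries fitted alone, SEs were 0.12 to 0.15 for the 10 members, and 5 had an adjusted p under 0.05, although none reached a log2 change of 1. In that fit 5.50% of 14649 genes had an adjusted p under 0.05 and were higher, and 53.1% were lower. Gli-α-3 had a limma adjusted p of 0.00517 with a log2 change of 0.63 (SE 0.13), and Gli-α-2 one of 0.00985 with a change of 0.51 (SE 0.13). The values for Gli-α-13 and Gli-α-7 were 0.42 and 0.34 with adjusted p of 0.0205 and 0.0450. On the other side, the change of Gli-α-5 was -0.41 (SE 0.15, limma adjusted p = 0.0470). Gli-α-8 was at 0.34 with an adjusted p of 0.0858. Log2 changes of Gli-α-4, Gli-α-10, Gli-α-11 and Gli-α-12 lay between -0.08 and 0.01, each smaller than its SE of 0.12 to 0.14.

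Whether members changed unlike the family was tested on log2(FPKM + 1) less the log2 of the summed FPKM of the 10 genes in each library, fitted by limma over all genes in the 6 libraries of 10 and 15 DPA and called at an adjusted p under 0.05. On this scale 4.46% of all genes were called higher and 64.1% lower. Gli-α-3 rose relative to the sum by 0.43 on the log2 scale (SE 0.13, adjusted p = 0.0164) and Gli-α-2 by 0.32 (SE 0.11, adjusted p = 0.0383). Gli-α-5 fell relative to the sum, its log2 change being -0.61 (SE 0.14, adjusted p = 0.00646). The other 7 members had relative changes between -0.27 and 0.22 and were not called. Scaling a library does not move such a difference from the sum, apart from the pseudocount. The call of Gli-α-5 was kept without any 1 of the 6 libraries. That of Gli-α-3 was lost without 10 DPA library 1 or 2 (adjusted p = 0.0635 and 0.0660), and that of Gli-α-2 without either of these or without 15 DPA library 1 or 2 (adjusted p = 0.0554 to 0.130). Relative to the sum of all 21 prolamins instead, neither was called (limma adjusted p = 0.171 for Gli-α-3 and 0.487 for Gli-α-2), while Gli-α-5 and 4 other members were called lower. The share of all genes called with that divisor was not counted. Gli-α-2 was also not called with no filter on low values (adjusted p = 0.0732), and in 1 fit of the 15 endosperm libraries 0 members were called.

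As shares of the 10-gene sum, the same differences can be read library by library. Gli-α-3 held 7.43% ± 0.275 at 10 DPA and 10.1% ± 0.783 at 15 DPA, and Gli-α-5 held 8.86% ± 0.455 and 5.85% ± 0.805 (SD, n = 3). Shares of the 5 genes that were higher in FPKM were also higher without overlap, and those of the other 5 were lower without overlap. Overlap of such shares was not counted over all genes. In the related test relative to the sum, 4.46% of all genes were called higher and 64.1% lower. Shares of 1 sum balance, so a lower share does not mean fewer transcripts. The ratio of Gli-α-3 to Gli-α-5, the members with the highest and the lowest ratio of 15 to 10 DPA, was 0.826, 0.777 and 0.922 in the 10 DPA libraries. It was 1.77, 1.39 and 2.10 at 15 DPA and 2.29, 2.36 and 2.04 at 20 DPA. Because the pair was picked on its 10 and 15 DPA values, the rise between these stages was built in. In the 25 DPA libraries the ratio was 1.74, 1.81 and 2.23, so Gli-α-3 stayed above Gli-α-5 in every library from 15 DPA on.

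In the order at 15 DPA, Gli-α-8 and Gli-α-11 kept the first places at 36643 ± 838 and 24198 ± 1079 FPKM (SD, n = 3). Gli-α-3 moved to the third place by mean, overlapping with Gli-α-12. Gli-α-5 went from the fourth place to the eighth, overlapping with Gli-α-10, and Gli-α-4 stayed last at 3662 ± 81.7. Gli-α-8 was then 9.95 to 10.1 times as abundant as Gli-α-4.

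**Figure D3:**
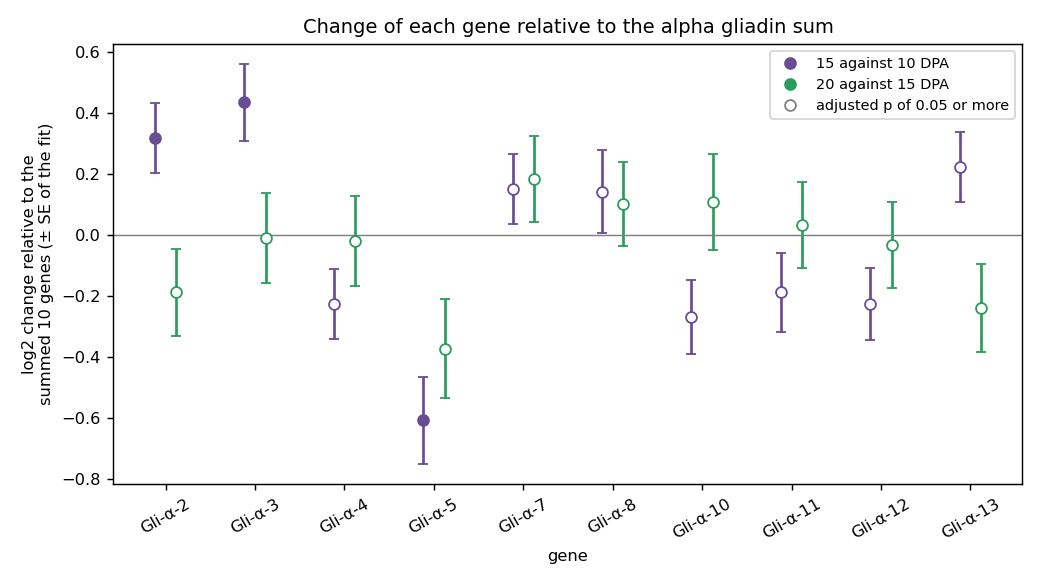
Log2 change of each alpha gliadin gene relative to the summed FPKM of the 10 genes, with the SE of the limma fit, for 15 against 10 DPA and for 20 against 15 DPA; filled points have an adjusted p under 0.05. Gli-α-2 and Gli-α-3 are above 0 and Gli-α-5 below 0 at 15 against 10 DPA, and no member is called at 20 against 15 DPA.

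From 15 to 20 DPA all 10 members fell together. The sum dropped to 8705, 12272 and 8365 FPKM, which was 0.274% ± 0.0622 of the total FPKM against 7.04% ± 0.411 at 15 DPA (SD, n = 3). Gli-α-8 had 2443, 3469 and 2352 FPKM, Gli-α-3 had 875, 1251 and 809, and Gli-α-5 had 382, 530 and 398. Library 2 was the highest at 20 DPA for each of these genes, and no member's libraries overlapped with those of 15 DPA, where 57.1% of all genes were lower without overlap.

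As deposited, limma called 10 of 10 lower at 20 DPA, against 43.0% of all genes, with log2 changes from -4.23 (Gli-α-5, SE 0.83, adjusted p = 0.00212) to -3.67 (Gli-α-7, SE 0.75, adjusted p = 0.00256). The members' median was -3.87 and that of all genes -1.09. Means were 12.6 to 18.7 times lower than at 15 DPA, with a median of 14.5. Total FPKM was 3556315 to 3596339 in these libraries against 1931439 to 2058668 at 15 DPA, and 9328 to 11010 genes were above 0 against 15305 to 16131. The part of these differences in the fall was not tested. After median-ratio scaling, which brought the median change of all genes from -1.09 to -0.23, limma called 0 of the 10, with log2 changes of -1.37 to -0.81. Under that scaling 2925 of 19418 genes were called in either direction.

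Relative to the family sum, 0 of the 10 members were called by limma at 20 against 15 DPA, where 1.83% of all genes were called lower and 86.7% higher. At an unadjusted p under 0.05 there was 1, Gli-α-5, with a relative log2 change of -0.37 (SE 0.16, adjusted p = 0.0509). That of Gli-α-13 was -0.24 and that of Gli-α-2 was -0.19, both genes that had gained in share at 15 DPA. Gli-α-7 stood at 0.18 and Gli-α-8 at 0.10. As a share of the 10 genes, Gli-α-8 went from 26.3% ± 0.108 to 28.2% ± 0.109 and Gli-α-7 from 8.14% ± 0.180 to 9.24% ± 0.250 (SD, n = 3), in both cases without overlap. In the other direction, also without overlap, Gli-α-2 went from 8.01% ± 0.238 to 7.02% ± 0.219, Gli-α-13 from 7.15% ± 0.280 to 6.04% ± 0.154 and Gli-α-5 from 5.85% ± 0.805 to 4.49% ± 0.236. Shares of the other 5 overlapped, and such overlap was not counted over all genes.

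At 25 DPA the level depended on the library. The 10-gene sum was 4107, 53401 and 7935 FPKM in the 3 libraries, or 0.114%, 2.89% and 0.423% of the total. Library 1 lay below all 3 of the 20 DPA libraries for 10 of 10 members, and library 2 lay above them for 10 of 10. In library 3, 5 members lay below the 20 DPA libraries and 5 among them. All 11 other prolamins did as the members in libraries 1 and 2, and the share of all genes was not counted. Library 2 had 17135 genes above 0, against 9328 to 11010 in the 20 DPA libraries. The part of this difference was not tested. Gli-α-8 had 1120, 15404 and 2564 FPKM, and Gli-α-10 had 235, 2595 and 249. Limma called 0 of 10 at 25 against 20 DPA, against 35.4% of all genes, with 0 members at an unadjusted p under 0.05. That share depends on the fit of all endosperm libraries: with these groups fitted alone, 29 of 7581 genes were called. After median-ratio scaling 9 of the 10 were called lower, where 1784 of 19418 genes were called in either direction. Without 25 DPA library 1 Gli-α-13 was called higher, and the share of all genes in that fit was not counted.

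Compared with 15 DPA, every 25 DPA library lay below all 15 DPA libraries for every member, as for 9.37% of all genes. Library 1 held 2.15% to 3.67% of a member's 15 DPA mean, library 2 held 28.8% to 46.1%, and library 3 held 3.34% to 7.78%. In the fit of all endosperm libraries 10 of 10 were called lower, against 3.64% of all genes, with log2 changes from -3.89 (Gli-α-2, SE 0.77, limma adjusted p = 0.00851) to -3.19 (Gli-α-7, SE 0.75, adjusted p = 0.0213). The calls rest on the shared spread: with the 2 groups fitted alone 0 were called lower, against 0.978% of all genes. Leaving out 15 DPA library 1, 2 or 3 left 4, 4 and 5 calls, and leaving out 25 DPA library 3 left 5. Against 5 DPA the 25 DPA libraries were higher for all 10 members, which limma called 10 of 10 with log2 changes of 7.43 to 9.27, against 3.60% of all genes.

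Within the family, proportions at 25 DPA were closer between libraries than the levels. Gli-α-8 and Gli-α-11 together held 44.1%, 45.5% and 46.4% of the 10-gene sum in the 3 libraries, although the sums themselves ran from 4107 to 53401 FPKM. Gli-α-8 alone held 27.3% to 32.3% of it. Gli-α-10 held 3.14% to 5.72%, against 5.98% to 6.81% at 10 DPA. Its share at 25 DPA overlapped with those of 15 DPA (5.07% to 5.64%) and 20 DPA (5.1% to 6.4%). The order of means was Gli-α-8, Gli-α-11, Gli-α-7 and Gli-α-3 at the top and Gli-α-5, Gli-α-10 and Gli-α-4 at the bottom, with Gli-α-8 first, Gli-α-11 second and Gli-α-4 last in each library.

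In flag leaf at 10 DPA the alpha gliadins were at or near 0. Their sum was 9.23, 8.08 and 6.44 FPKM, and 7, 3 and 5 of the 10 were listed at 0 in the 3 libraries. Gli-α-4 and Gli-α-10 were listed at 0 in all 3 leaf libraries. The highest leaf value of any member was 5.11 FPKM, that of Gli-α-11 in library 1, the library with the lowest relative depth, and Gli-α-11 was at 0 in the other 2. Gli-α-8 had 2.72, 1.19 and 0.9 FPKM in leaf. Limma, fitted on the 6 libraries of 10 DPA and 16709 genes, called 10 of 10 higher in endosperm, against 21.7% of all genes. Gli-α-4, Gli-α-10 and Gli-α-12 (at most 0.78 FPKM in leaf) passed the filter of 1 FPKM through endosperm alone. For these genes a higher call was the only one possible, so it adds nothing to their values. The log2 differences of the other 7 were 12.13 (Gli-α-13, SE 0.44) to 13.68 (Gli-α-11, SE 0.67), with limma adjusted p from 3.02e-07 to 5.28e-06.

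The alpha gliadins made up a smaller part of prolamin transcripts as filling went on. The 10 genes held 38.6%, 37.9% and 39.3% of the summed FPKM of the 21 prolamin genes in the 10 DPA libraries. At 15 DPA they held 33.4%, 35.1% and 31.6%, and at 20 DPA 26.8%, 27.0% and 26.1%. Neither step had overlapping libraries. In the 25 DPA libraries the share was 29.8%, 23.8% and 21.2%, overlapping with 20 DPA. The 3 gamma gliadins, which share the proline- and glutamine-rich build of alpha gliadins, went from 28.8% ± 1.19 to 32.0% ± 0.895 and then 34.2% ± 1.09 over the same stages, without overlap at the first step (SD, n = 3). The 3 low molecular weight glutenins, subunits of the disulfide-linked glutenin polymer, held 21.9% ± 0.746, 22.4% ± 1.95 and 27.9% ± 1.01, without overlap at the second.

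Set gene by gene on the scale of the alpha gliadin sum, Gli-γ-1 rose at 15 against 10 DPA by a relative log2 change of 0.59 (SE 0.17, limma adjusted p = 0.0142), as did TuGlu-1Ax, a high molecular weight glutenin gene, by 0.74 (SE 0.15, adjusted p = 0.00302). At 20 against 15 DPA all 3 low molecular weight glutenin genes rose relative to that sum, by 0.51 (TuA3-576c, adjusted p = 0.0106) to 0.74 (TuA3-538a, adjusted p = 0.00137). Gli-ω-1, Gli-γ-1 and Gli-γ-2 rose with them, so that 6 of the 11 other prolamins were called higher on this scale. Since the alpha gliadins fell by more than most genes, 86.7% of all genes were higher at that step, a larger share than among the prolamins. Of the 11 other prolamins, 11 were called higher at 10 against 5 DPA, beside 3.16% of all genes, and 11 lower at 20 against 15 DPA, beside 43.0%, as deposited, with medians of 11.21 and -3.36 beside 11.88 and -3.87 for the 10 alpha gliadins. At 25 against 15 DPA 5 of the 11 were called lower, beside 3.64% of all genes. With those groups fitted alone no other prolamin was called, as no alpha gliadin was, the lowest limma adjusted p of the 11 being 0.085 (Gli-γ-1).

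**Figure D4:**
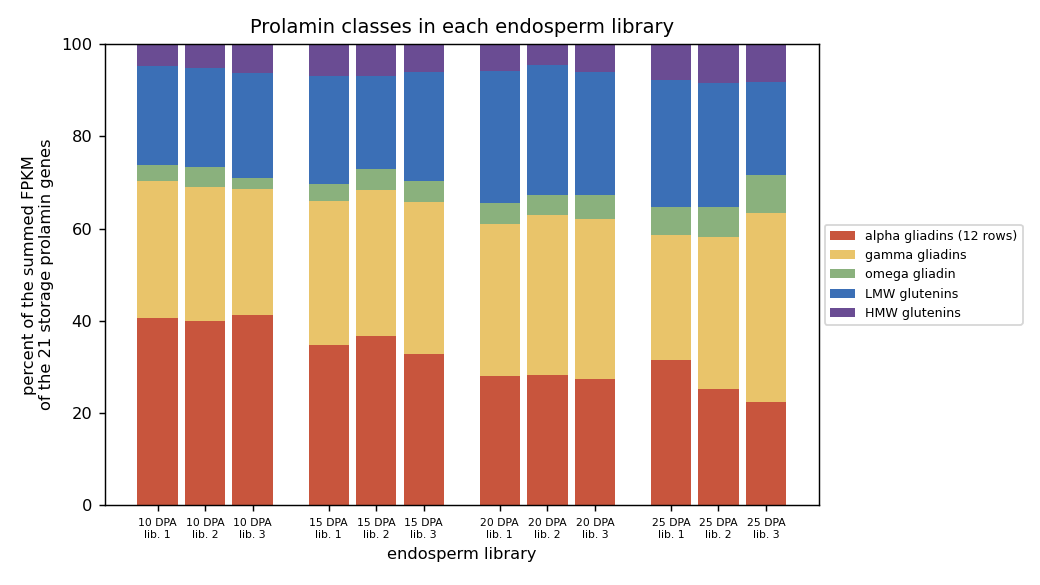
Percent of the summed FPKM of the 21 storage prolamin genes held by each class in each endosperm library from 10 to 25 DPA; the alpha gliadin bar holds all 12 rows of that class. The alpha gliadin bar falls from 40.0% to 41.2% at 10 DPA to 27.4% to 28.2% at 20 DPA, and the 25 DPA libraries are unlike one another.

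Gli-α-6 and Gli-α-9, the alpha gliadin rows that are not among the 10, also appeared at 10 DPA and fell by 20 DPA. Gli-α-6 had 5738, 5997 and 5689 FPKM at 10 DPA, 5110, 6127 and 5081 at 15 DPA and 389, 526 and 387 at 20 DPA. Its level lay between those of Gli-α-4 and Gli-α-13 at 10 DPA, and its 10 and 15 DPA libraries overlapped. Gli-α-9 was far lower, at 393, 409 and 297 FPKM at 10 DPA and 394, 357 and 458 at 15 DPA, and was listed at 0 in all 3 of the 5 DPA libraries. At 20 DPA it had 16.6, 20.9 and 19.0 FPKM. Relative to the 10-gene sum it fell at 20 against 15 DPA (log2 change -0.49, SE 0.21, limma adjusted p = 0.0438).

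The table names 12 rows individually as regulators or processing genes of storage proteins. At 10 against 5 DPA, as the alpha gliadins appeared, limma called 3 of them higher and 1 lower, beside 3.16% and 45.6% of all genes. TuSPA (TRIUR3_18984), the bZIP storage protein activator, rose from 0.32, 0.6 and 1.69 to 17.9, 15.7 and 18.8 FPKM, by 3.37 on the log2 scale (SE 0.55, adjusted p = 0.000161). TuWPBF (TRIUR3_33098), the Dof factor of the prolamin box, and TuGAMYB (TRIUR3_27104), a MYB factor of cereal grains, rose by 3.30 and 1.92 on that scale. TuOHP1 (TRIUR3_24233), a bZIP gene named after the heterodimerising partner of maize Opaque2, fell from 44.0, 32.2 and 47.7 to 10.4, 13.6 and 12.1 FPKM.

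At 15 against 10 DPA, when the alpha gliadin sum stayed high, 3 of the 12 were called lower, against 16.7% of all genes, and 0 higher. TuPdi (TRIUR3_24343), whose name is that of the protein disulfide isomerase that forms disulfide bonds in the endoplasmic reticulum, fell from 2615, 2835 and 2558 to 183, 248 and 156 FPKM (log2 change -3.79, SE 0.76, limma adjusted p = 0.00261). Tuglup3 (TRIUR3_18628), named after the rice vacuolar processing enzyme, and Tuglup2 (TRIUR3_21622) fell by 4.74 and 2.29 on the log2 scale. TuSPA went to 5.45, 3.16 and 7.88 FPKM and TuWPBF to 40.9, 41.1 and 30.1, neither called (limma adjusted p = 0.0571 and 0.0608). For both genes the 15 DPA libraries were lower without overlap, as for most of the 12 and for 48.9% of all genes. At 20 against 15 DPA 10 of the 12 fell, beside 43.0% of all genes, and at 25 against 15 DPA 2 of the 12, TuWPBF and Tuglup3, were called lower, beside 3.64%. At 25 against 20 DPA, where 0 alpha gliadins were called, 6 of the 12 were called higher, beside 35.3% of all genes. With those groups fitted alone, only 29 of 7581 genes were called in either direction. At 25 against 5 DPA 10 of the 12, TuWPBF among them, were called lower, beside 72.0% of all genes, while all 10 alpha gliadins were higher.

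Outside the prolamins, the genes whose profile was most like that of the alpha gliadins were found by Pearson's r with the mean log2(FPKM + 1) of the 10 members over the 15 endosperm libraries. The comparison took in the 11341 genes that reached a stage mean of 10 FPKM, and r is a description, since the libraries share their stage and scale. The 5 annotated genes with the highest r were all NAC transcription factor genes, where 1160 of the 27121 genes carry an annotation. TRIUR3_25136 had an r of 0.982, with 147, 176 and 168 FPKM at 10 DPA, 177, 182 and 152 at 15 DPA, 15.8, 19.1 and 20.0 at 20 DPA and 8.75, 176 and 31.6 at 25 DPA. It was near 0 at 5 DPA and listed at 0 in leaf. TRIUR3_00447, TRIUR3_25137, TRIUR3_01582 and TRIUR3_23644 followed at 0.965, 0.957, 0.956 and 0.933. In 25 DPA library 2, TRIUR3_00447, TRIUR3_01582 and TRIUR3_23644 had 575, 390 and 234 FPKM, above each of their 15 DPA libraries (means 419, 295 and 117). TRIUR3_25136 and TRIUR3_25137, at 176 and 47.3 FPKM in that library, lay among their 15 DPA libraries, while the alpha gliadins lay below all of theirs.

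Among genes with no annotation, TRIUR3_03663 was the nearest at an r of 0.995, followed by TRIUR3_14552, TRIUR3_28410, TRIUR3_09156 and TRIUR3_08670 at 0.994 to 0.992. TRIUR3_03663 had 2, 6.73 and 3.52 FPKM at 5 DPA, 14186, 14642 and 20875 at 10 DPA, 18568, 13813 and 17473 at 15 DPA, 584, 918 and 499 at 20 DPA and 348, 3896 and 579 at 25 DPA. Its levels lay within the range of the alpha gliadins at 10 and 15 DPA, with 2.08, 1.24 and 1.11 FPKM in leaf. For comparison, r between pairs of the 10 members was 0.984 to 0.999 over 45 pairs, and that of the 11 other prolamins with the members' mean was 0.978 (Gli-α-9) to 0.999 (Gli-γ-3).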

How the data were processed

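The deposited table gives 1 FPKM value per gene and library, computed by the authors. Bowtie 0.12.2 is named in the submitters' processing notes, while no source used here gives the counting program, genome build or annotation. Log2(FPKM + 1) was fitted with limma 3.58.1 in R 4.3.3 with a trended prior. A gene was tested where 3 or more of a fit's libraries had an FPKM of 1 or higher. Endosperm contrasts used 1 fit of 15 libraries, and flag leaf a fit of 6. The fit relative to the family sum used the 6 libraries of the compared stages. The calling scripts were run on simulated data whose noise was drawn separately for each gene and library, without shifts shared by a whole library. The simulated relative fit took the same constant off every library, so the family sum itself was not tried there. The members, lists and tests were chosen with earlier results of these data known. All 10 members are described, with the individually named regulators and, by r, the 5 annotated and 5 unannotated genes most like them. Alternatives were pseudocounts of 0.1 and 5, other filters, 2 scalings, other divisors of the relative fit, groups fitted alone, and leaving out each library. The 2 settings named so below were chosen after seeing the data. The smallest exact p for 3 against 3 libraries is 0.1. No sequence of these genes was used here.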

Additional observations from a re-analysis of the deposited data

How the results depend on the processing

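Counts of called members at 10 against 5 DPA (10), 15 against 10 DPA (0) and 25 against 5 DPA (10) were the same under every alternative run for them. For the first 2 these included a fit of the 12 libraries of 5 to 20 DPA, a setting chosen after seeing the data. The 10 calls at 20 against 15 DPA became 0 after median-ratio scaling and were 10 under the other settings. At 25 against 20 DPA the count was 0, 9 after median-ratio scaling, and 0 to 1 with 1 library left out. At 25 against 15 DPA it was 10, 0 with the groups fitted alone, and 4 to 10 with 1 library left out. Against flag leaf it was 7 to 10 with 1 library left out: without an endosperm library Gli-α-4, Gli-α-10 and Gli-α-12 no longer passed the filter. Relative to the family sum, 3 members at 15 against 10 DPA (2 higher, 1 lower) became 5, all lower, against the sum of all prolamins, with the higher calls of Gli-α-2 and Gli-α-3 lost, 0 in a fit of the 15 endosperm libraries, and 1 to 5 with 1 library left out. The 0 members at 20 against 15 DPA became 3 against all prolamins, 1 with no filter, 1 with the sum of all 12 alpha gliadin rows (chosen after seeing the data), and 0 to 1 with 1 library left out. Except where stated, the causes were not tested.

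Some uncalled log2 changes turned sign. At 15 against 10 DPA median-ratio scaling gave 0.73 for Gli-α-4, 0.35 for Gli-α-5, 0.68 for Gli-α-10 and 0.73 for Gli-α-12, and total FPKM scaling gave -0.13 for Gli-α-11. With 1 library left out Gli-α-4 ran from -0.0865 to 0.0035, Gli-α-11 from -0.0156 to 0.0447 and Gli-α-12 from -0.0629 to 0.0129. At 25 against 20 DPA median-ratio scaling gave, for Gli-α-2, 3, 4, 5, 7, 8, 11, 12 and 13 in turn, -2.37, -2.18, -2.30, -1.96, -2.04, -2.14, -2.37, -2.28 and -2.00, and total FPKM scaling gave 0.57 for Gli-α-10. With 1 library left out these ran, for Gli-α-2, 3, 4, 5, 7, 8, 10, 11, 12 and 13, from -0.90, -0.69, -0.90, -0.52, -0.55, -0.68, -1.19, -0.96, -0.85 and -0.61 to 0.97, 1.12, 0.84, 1.27, 1.27, 1.21, 0.54, 0.89, 0.94 and 1.41, the lowest values without 25 DPA library 2. Relative to the family sum at 15 against 10 DPA, dividing by all prolamins gave -0.0626 for Gli-α-7 and -0.0700 for Gli-α-8. At 20 against 15 DPA it gave -0.14, -0.22, -0.22 and -0.29 for Gli-α-7, Gli-α-8, Gli-α-10 and Gli-α-11. There the geometric mean gave 0.0369, 0.0254 and 0.0137 for Gli-α-3, Gli-α-4 and Gli-α-12, and a pseudocount of 5 gave 0.0015 for Gli-α-4. With 1 library left out Gli-α-3 ran from -0.058 to 0.0516 and Gli-α-4 from -0.0362 to 0.0097. No paired analysis was possible because the columns carry no replicate number that ties libraries across stages. Read depth is not given, so no counting error or detection limit stands behind the values near 0.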

Other observations

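The smaller prolamin classes held more of the prolamin FPKM at the end of filling. Gli-ω-1, the single omega gliadin gene of the table, held 4.60%, 4.24% and 5.14% of it in the 20 DPA libraries and 6.24%, 6.41% and 8.18% at 25 DPA, without overlap. The 2 high molecular weight glutenin genes held 5.77%, 4.55% and 5.96% at 20 DPA and 7.89%, 8.47% and 8.14% at 25 DPA, also without overlap, although the 25 DPA libraries differed widely in prolamin level. No test was run on these shares.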
